A study of Mus musculus with 24 samples.

Results

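Interferon response genes are the genes that cells switch on when interferon reaches them. The 35 genes described here were given as a list and not picked by a measured value of these data, though the list was chosen with earlier results of these data known. All 35 were found by symbol in the RefSeq annotation of the mouse build mm10 (GRCm38.p6), among 21898 gene spans in all. Of these, 33 are annotated as protein-coding and 2, Mx1 and Mx2, as transcribed pseudogenes. Each gene was taken as its span plus 10 kb on each side. The windows of 8 members overlap a neighbour's (Oas2 with Oas3, Oasl1 with Oasl2, Ifit2 with Ifit3, Rsad2 with Cmpk2), so the 35 genes make 31 separate stretches that hold 1317 kb.

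Type I interferons bind a cell-surface receptor whose kinases phosphorylate STAT proteins. These join Irf9 in a complex that binds a short DNA element, the interferon-stimulated response element (ISRE), near the starts of the genes it switches on. Type II interferon acts through a STAT dimer on another element, the gamma-activated site (GAS). In blood stem and progenitor cells interferon is known to drive dormant stem cells into cycle, and PU.1, a factor of the myeloid and B lineages, can bind composite elements together with interferon regulatory factors.

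The cells were C57BL/6 mouse bone marrow cells depleted of lineage-positive cells, the fraction that holds haematopoietic stem and progenitor cells. Utx, encoded by Kdm6a on the X chromosome, is a histone H3K27 demethylase and a part of the complexes that write H3K4me1, a mark of enhancers. Smarca4 (Brg1) is the motor subunit of the SWI/SNF remodeller and Chd4 that of the NuRD remodeller. H3K4me1 was mapped by ChIP-seq in 2 Utx WT and 2 Utx KO libraries, and PU.1 in 3 and 3. Accessible chromatin was mapped by ATAC-seq in Cas9-expressing cells: 2 Utx WT and 2 Utx KO libraries with an empty vector, and 2 of each genotype with a Smarca4 gRNA. A second ATAC set holds 2 Utx WT libraries with an empty vector and 2 with a Chd4 gRNA. For this set the labels give 7 days in semi-solid medium, 5 days in liquid culture and 6 days after editing, though the text of that label speaks of Brg1. How Utx was deleted, how many animals or clones stand behind a group, and how much protein the gRNAs removed are not given in the sources used here. The series has 24 samples, of which 22 have a peak list, and the 2 input samples were not analysed here. Every value is a peak position or a peak score, not a level of RNA.

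The promoters of the listed genes carry the interferon element more often than promoters at large. RefSeq promoters, 250 bases before to 50 after a start, were at hand for 28 of the 35 members and for 17491 protein-coding genes. An ISRE-like run (GAAA, any 2 bases, GAAA, on either strand) was found in 14 of 28 members (50.0%) and in 3.94% of genes. A GAS-like run, TTCNNNGAA, was found in 10 of 28 members (35.7%) and in 8.92% of genes. A PU.1 and IRF composite-like run (GGAA, any 2 bases, GAAA) was found in 5 of 28 (17.9%, against 2.98%), and a PU.1-like run, GAGGAAGT, in 1 of 28 (3.57%, against 3.64%). The ISRE-like and composite-like runs differ by 1 letter and can overlap, and Stat2 and Gbp5 have both. Such matches are strings of letters and not measured binding sites.

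The ISRE-like match nearest to the start is shown for 8 members of different roles, to let the shared element be seen across unrelated promoters. Each line gives the match in capitals with 15 bases on each side, or up to the start for Oas1a, 5′ to 3′ on the gene's strand, from RefSeq (GRCm38.p6).
Stat2 (chr10:128270261-128270300, plus strand): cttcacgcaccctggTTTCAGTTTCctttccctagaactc
Oas1a (chr5:120907526-120907554, minus strand): ccttctcgggaaatgGAAACTGAAAatct
Oas3 (chr5:120777710-120777749, minus strand): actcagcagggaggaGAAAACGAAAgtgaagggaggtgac
Ifit1 (chr19:34640789-34640828, plus strand): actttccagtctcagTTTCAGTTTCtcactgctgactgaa
Ifit3 (chr19:34583392-34583431, plus strand): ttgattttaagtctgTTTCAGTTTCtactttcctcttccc
Isg15 (chr4:156200860-156200899, minus strand): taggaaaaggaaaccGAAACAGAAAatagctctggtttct
Gbp2 (chr3:142620589-142620628, plus strand): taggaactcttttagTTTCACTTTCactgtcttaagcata
Rsad2 (chr12:26456548-26456587, minus strand): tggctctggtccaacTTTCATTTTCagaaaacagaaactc
Where the capitals begin with TTTC the element lies on the opposite strand. The near edge of the match lay 5 bases before the start in Oas1a, 57 in Isg15, 66 in Oas3 and 213 in Stat2.

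Among the oligoadenylate synthetase genes, 3 starts lay in ATAC regions that were lost in 1 of the comparisons below: Oasl1 in Utx KO, Oasl2 after Smarca4 gRNA and Oas3 after Chd4 gRNA. The 250 bases before these starts are shown from RefSeq (GRCm38.p6), with matches to any of the 4 runs in capitals.
Oasl1 (chr5:114922990-114923239, plus strand): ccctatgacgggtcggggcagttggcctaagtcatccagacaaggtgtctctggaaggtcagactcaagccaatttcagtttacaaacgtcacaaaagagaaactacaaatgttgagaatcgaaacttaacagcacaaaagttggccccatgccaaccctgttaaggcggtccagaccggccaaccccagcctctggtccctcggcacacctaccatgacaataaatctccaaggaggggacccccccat
Oasl2 (chr5:114896684-114896933, plus strand): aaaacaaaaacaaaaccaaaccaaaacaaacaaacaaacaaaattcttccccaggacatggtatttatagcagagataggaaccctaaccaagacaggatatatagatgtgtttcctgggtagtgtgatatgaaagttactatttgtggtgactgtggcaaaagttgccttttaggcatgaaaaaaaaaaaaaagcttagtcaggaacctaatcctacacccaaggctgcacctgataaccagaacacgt
Oas3 (chr5:120777660-120777909, minus strand): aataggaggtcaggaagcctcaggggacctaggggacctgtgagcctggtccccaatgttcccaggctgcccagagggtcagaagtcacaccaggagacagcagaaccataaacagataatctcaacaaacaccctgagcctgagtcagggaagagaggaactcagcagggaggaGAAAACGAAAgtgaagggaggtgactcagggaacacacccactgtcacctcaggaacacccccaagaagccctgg
Oas3 holds 1 match, GAAAACGAAA, at 75 to 66 bases before the start. The other two promoters hold none of the 4 runs in this stretch, which says only that those letters are not there.

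Peaks lay over the starts of interferon response genes more often than over starts in general, in all 22 libraries. H3K4me1 islands covered a start of 20 to 25 of the 28 members (71.4% to 89.3%) and of 35.5% to 50.7% of all genes. PU.1 islands covered 24 to 26 of 28 (85.7% to 92.9%, against 50.7% to 53.4% of genes). ATAC peaks covered 14 to 23 of 28 (50.0% to 82.1%, against 42.9% to 53.1%). The start was open in all 12 ATAC libraries at 14 members, among them Irf1, Irf7, Irf9 and Stat2, the factors that carry the interferon signal, Ifih1, a sensor of double-stranded RNA, and Ifit2. It was closed in all 12 at Oas1a, Ifit1, Ifit3 and Ifi44. Ifit1 is an inhibitor of translation of foreign RNA, and its start was nevertheless covered by H3K4me1 and by PU.1 in every library. Of the 14 members with an ISRE-like run, 4 to 10 had an open start per ATAC library, and of the 14 without one, 10 to 13 did.

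**Figure D1:**
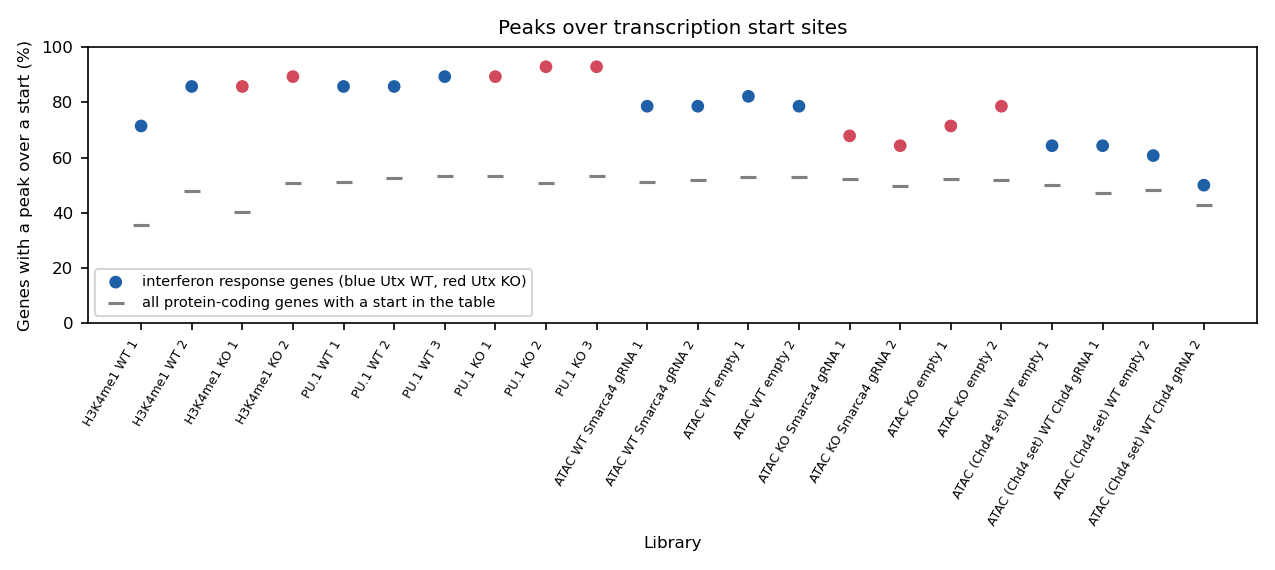
Each dot gives, for 1 library (horizontal axis), the percent of the 28 interferon response genes with a listed start that have a peak over a start, blue for Utx WT and red for Utx KO. The grey dash gives the same percent over all 17491 genes. All 22 dots lie above their dash, and the lowest ATAC dot, at 50.0%, is Chd4 gRNA replicate 2.

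Most members had a peak of each kind within their window. H3K4me1 islands were found at 34 and 35 members in the Utx WT libraries and at 32 and 33 in Utx KO, while 73.4% to 75.8% of protein-coding genes had one. PU.1 islands were found at 34, 35 and 34 members in Utx WT and at all 35 in each Utx KO library (81.7% to 84.4% of genes). ATAC peaks were found at 28 to 31 members per library (61.0% to 71.7% of genes). Merged over libraries, the members held 89 H3K4me1, 227 PU.1 and 105 ATAC regions. In H3K4me1, 56 of 89 (62.9%) were present in every library, against 50.5% of regions near any protein-coding gene. In PU.1, 133 of 227 were (58.6%, against 52.5%), and in ATAC, 32 of 105 (30.5%, against 23.3%). No ATAC region at all was found at Oas1a, Ifit3 or Ifi44. Oas1a makes the messenger that activates RNase L, and Ifit3 is a partner of Ifit1.

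The column 4 score of the ChIP lists is the authors' value for an island in its own library, so members were ranked within each list by summed score per kb of window. The middle gene of a list lies at the 50th percentile by construction, and short genes weigh more since both flanks count. The members' median lay at 68.1 and 72.5 in the Utx WT and at 62.6 and 63.2 in the Utx KO H3K4me1 lists. In PU.1 it lay at 71.9, 70.3 and 69.3 in Utx WT and at 72.4, 71.0 and 69.9 in Utx KO. The members thus sat above the middle gene in each list.

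By score per kb of window, Irf1 led the members in both marks, and the other interferon signalling factors ranked differently in each. The scores in ppm below are not divided by window length, so their order can differ from the ranks. In PU.1, for example, Samhd1 had 101, 99.4 and 116 ppm in Utx WT and ranked 8. Irf1, an early activator of interferon-stimulated genes, stood first among members in both marks, with a mean percentile over the Utx WT lists of 94.7 for H3K4me1 and 98.6 for PU.1. Its H3K4me1 score, in ppm of the summed score of the list, was 136 and 116 in Utx WT and 130 and 121 in Utx KO. Its PU.1 score was 101, 102 and 111 in Utx WT and 94.2, 95.7 and 93.7 ppm in Utx KO. Irf7, the regulator that amplifies interferon production, came second in PU.1 with 58.2, 62.3 and 66.5 ppm in Utx WT and 63.4, 72.3 and 65.2 in Utx KO, and ranked 11 of 35 in H3K4me1. Irf9, the DNA-binding part of the interferon-activated complex, came second in H3K4me1, with 113 and 90.3 in Utx WT and 84.3 and 75.2 in Utx KO, and ranked 24 in PU.1, with 17.7, 18.3 and 19.8 in Utx WT and 15.6, 20.1 and 19.7 in Utx KO. Stat2 ranked 13 in H3K4me1 and 7 in PU.1. Ifi35, an interferon-induced protein, ranked 3 in both, at percentile 92.5 in H3K4me1 and 95.2 in PU.1. Its values were 121 and 110 in Utx WT and 134 and 127 in Utx KO for H3K4me1, and 77.4, 76.7 and 83.8 against 80.4, 86.4 and 90.7 for PU.1.

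The lowest members by score per kb of window were antiviral effectors. In H3K4me1 they were Ifi44 with 0 and 5.07 ppm in Utx WT and 0 in both Utx KO lists, Oas2 with 5.34 and 9.92 against 6.79 and 6.03, and Oas1a with 5.05 and 7.88 against 0 and 12.9. In PU.1 they were Ifit3 with 0, 1.62 and 0 ppm in Utx WT and 5.44, 1.52 and 0.936 in Utx KO, Oas1a with 7.07, 8.78 and 7.99 against 13.9, 14.5 and 11.4, and Xaf1, an interferon-induced promoter of apoptosis, with 13.0, 10.8 and 10.1 against 11.5, 16.0 and 10.9. The members thus ran from percentile 21.3 to 94.7 in H3K4me1 and from 13.3 to 98.6 in PU.1. Lists of different length were ranked apart, so a shift in percentile between genotypes is not by itself evidence of a change. Scores did shift at some members. Isg20 had 89.3 and 73.0 ppm of H3K4me1 in Utx WT and 25.0 and 38.4 in Utx KO. Eif2ak2 went the other way, with 9.09 and 22.2 against 35.4 and 35.7, and these shifts were not tested.

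**Figure D2:**
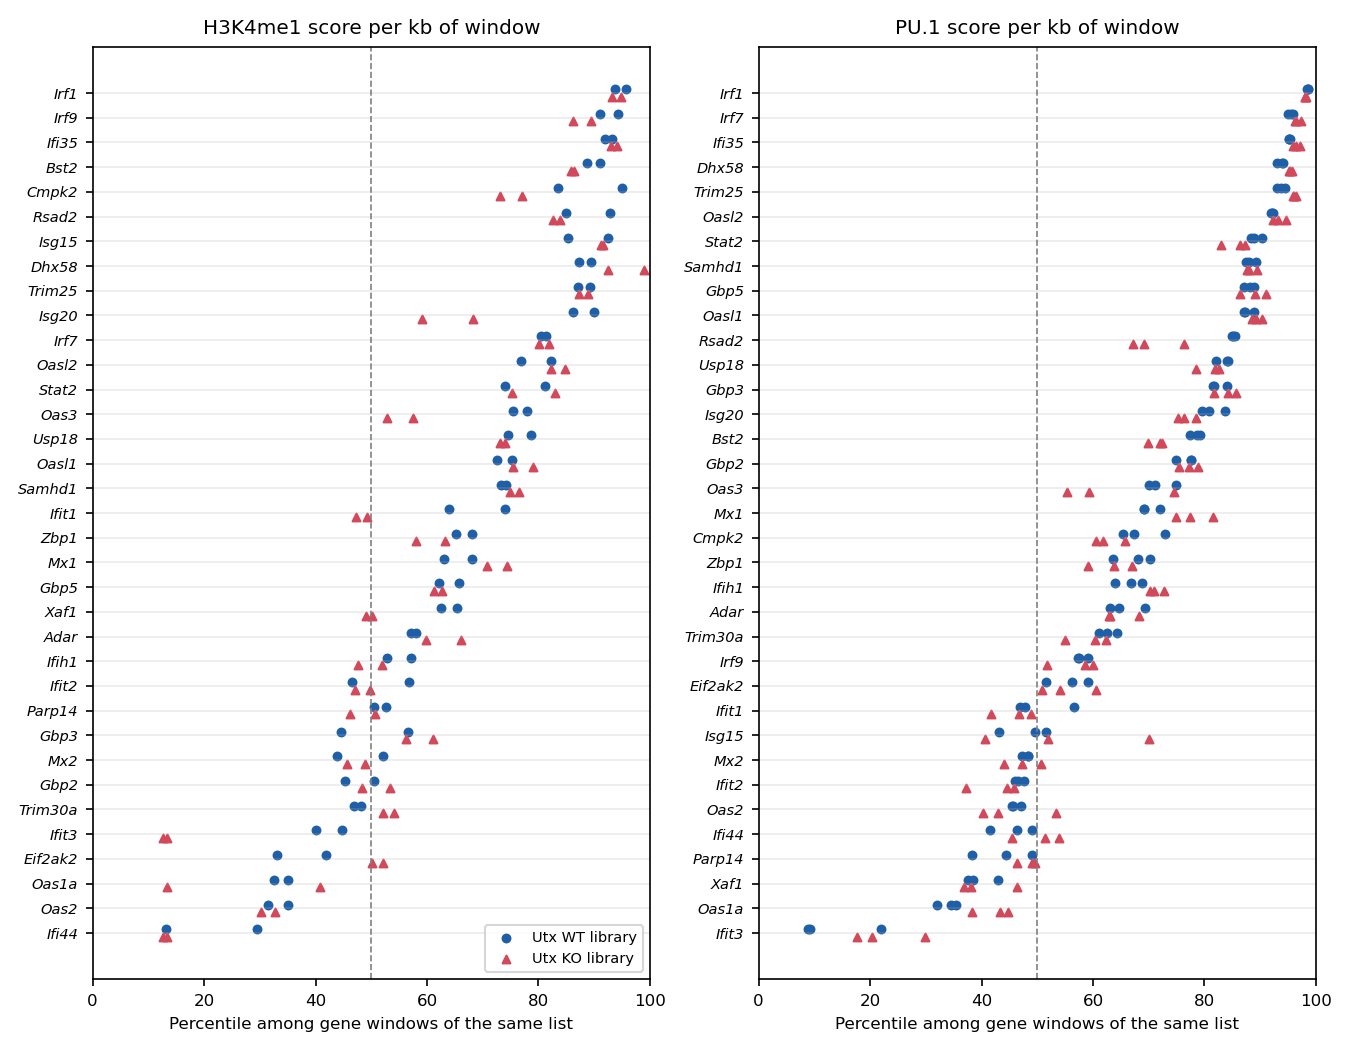
Each point is the percentile of 1 member gene's score per kb among all gene windows of 1 list, with blue circles for Utx WT and red triangles for Utx KO libraries, and genes ordered by their Utx WT mean. Irf1 stands first in both panels (94.7 and 98.6), and in H3K4me1 Ifit3 lies at a mean of 42.5 in Utx WT and 13.0 in Utx KO, where it had no island.

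Lists differed in length with genotype and gRNA, which touches every count below. H3K4me1 lists held 51394 and 54654 islands in Utx WT and 44089 and 43706 in Utx KO. PU.1 lists held 137850 to 143628 in Utx WT and 138373 to 171535 in Utx KO. ATAC lists held 50845 and 50927 peaks in Utx WT with empty vector, 40477 and 41024 in Utx KO, and 24833 and 34429 after Chd4 gRNA against 41480 and 48687 in that set's controls. ATAC depth is unknown. ATAC peaks covered the start of 4 to 6 of 6 progenitor markers and of no B cell, T cell or erythroid marker with a listed start. H3K4me1 covered the starts of 1 to 2 of 2 B cell, 0 to 1 of 3 T cell and 1 to 2 of 3 erythroid markers, and PU.1 those of 1 of 2, 0 to 1 of 3 and 0 of 3. Mrc1, the 1 macrophage marker with a listed start, was covered in 1 ATAC library (Utx WT with empty vector, replicate 1) and in every ChIP list, and of the plasmacytoid dendritic cell markers ATAC peaks covered only Bst2, itself a member, while H3K4me1 covered 1 to 3 and PU.1 all 3 of those with a listed start. Of the 4 late granulocyte markers, the start of S100a8 alone was covered in each of the 4 Utx WT libraries of the Smarca4 set, none in the 4 Utx KO libraries, and all 4 in each library of the Chd4 set. In PU.1, 3 to 4 of these markers were covered in Utx WT and 2 to 3 in Utx KO. Ngp and the T cell marker Cd8a were each covered by PU.1 in 3 of 3 Utx WT and 0 of 3 Utx KO libraries. S100a8 in ATAC and Ngp and Cd8a in PU.1 thus moved with genotype. Of the progenitor markers, ATAC covered Flt3 in both Utx WT libraries with empty vector and in neither with Smarca4 gRNA. In Utx KO it was covered in both empty-vector libraries and in gRNA replicate 1 alone. Mpo was covered in no ATAC library of the Smarca4 set and in every library of the Chd4 set. The part of these markers in the results below was not tested.

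A region was called lost when every library of the reference group and no library of the perturbed group had a peak in it, and gained in the reverse case. With 2 or 3 libraries a group, no test of single regions was made, and the share among members was read against the same share over all regions within 10 kb of a protein-coding gene. The share of the list's covered bases that lay in member windows passed no test in the 6 comparisons (two-sided exact permutation tests, smallest p 0.33, which is the smallest that 2 against 2 allows, and p = 0.8 for PU.1, where 0.1 is the smallest), and with so few libraries no test could pass the usual threshold. It was 0.179% ± 0.00151 (SD, n = 2) in Utx WT and 0.168% ± 0.00521 (n = 2) in Utx KO for H3K4me1, and 0.144% ± 0.00873 (n = 3) and 0.146% ± 0.00772 (n = 3) for PU.1. For ATAC it was 0.171% ± 0.00239 in Utx WT and 0.177% ± 0.0031 in Utx KO with empty vector (n = 2 each), 0.179% ± 0.0116 and 0.179% ± 0.00437 after Smarca4 gRNA in Utx WT and Utx KO, and 0.178% ± 0.00239 and 0.17% ± 0.00598 in the controls and gRNA libraries of the Chd4 set. The libraries of the groups compared did not overlap in this share in H3K4me1, in ATAC of Utx KO against Utx WT and in the Chd4 set, and they overlapped in the others. The share of the summed score was 0.194% ± 0.00584 in Utx WT and 0.19% ± 0.0121 in Utx KO for H3K4me1 (exact permutation p = 1.0), and 0.155% ± 0.00817 and 0.157% ± 0.00517 for PU.1 (p = 0.8). Nothing in the labels says that replicates came from different mice or cultures, so a p here measures only the spread between these samples, which may be technical.

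**Figure D3:**
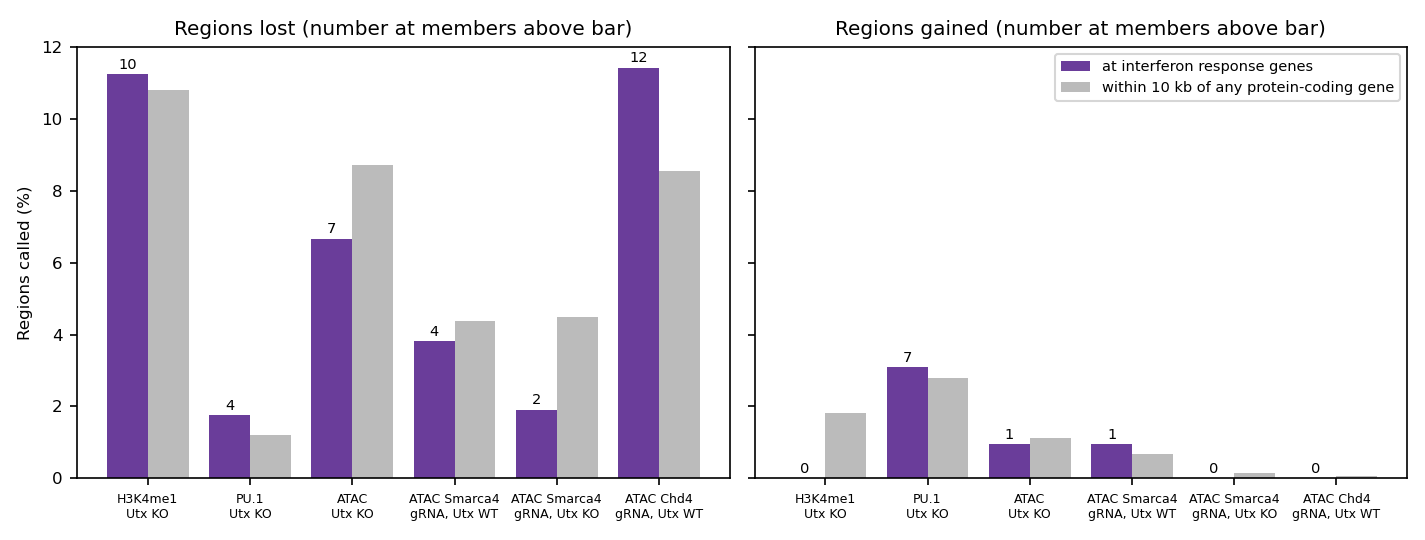
Bars give the percent of regions lost (left) and gained (right) in each of the 6 comparisons, purple for regions at interferon response genes, with their number above, and grey for regions near any protein-coding gene. The purple and grey bars lie close in most comparisons, for example 10 of 89 H3K4me1 regions (11.2%) against 10.8%.

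H3K4me1 was lost at 10 of 89 member regions in Utx KO (11.2%), where 10.8% of regions near genes were lost, and none was gained, where 1.82% were. The 10 lay at 7 of the 35 members (20.0%, against 18.6% of genes), so the members as a list stood near the background. None of the 10 lay over a listed start of its own member, and Parp14 has no listed start to judge by. The rule counts presence only, so a lower score in an island that stays, as at Isg20, is not seen. The IFIT genes, whose products bind viral RNA, lost 3 of 8 regions. At Ifit1 an island further into the gene scored 36 and 148 in Utx WT and a second, past the gene, 100 and 206, and neither was found in Utx KO, while the start kept its island. At Ifit3 the single island of its window scored 81 and 140 in Utx WT, and Utx KO had no island in this window. That island also covers the start of the neighbour Ifit1bl1.

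Ifih1, the double-stranded RNA sensor MDA5, lost an island inside the gene that scored 103 and 359 in Utx WT and another past the gene that scored 64 and 93. The island inside the gene also covers the start of another gene, Gm39839. Oas3 lost islands of 72 and 135 inside the gene and of 46 and 40 upstream of its start, the latter within the neighbour Oas1e. Rsad2, the antiviral enzyme viperin, lost a distant island of 63 and 97, and Xaf1 one of 113 and 238 inside the gene. Parp14, an ADP-ribosyltransferase, lost one of 69 and 139. None of the 11 H3K4me1 regions at the 4 interferon signalling factors was lost. Nor was any of the 9 at the 3 genes of the Isg15 system (Isg15, its protease Usp18 and its ligase Trim25), or of the 10 at the 5 Mx and Gbp genes. With 10.8% of regions near genes lost, so few regions set none of these groups apart. Cut to equal length, the lists gave 8 lost regions at the same 7 members (9.41%, against 7.72% near genes) and 2 gained ones, at Eif2ak2 and Xaf1 (2.35%, against 4.56%). Without Utx WT replicate 2, 17 were lost, since the rule then asks for fewer libraries.

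Counted by presence of a peak, PU.1 changed at few member regions. A change of score in an island that stays is not seen by this rule. For example, the PU.1 score of the Rsad2 window was 52.9, 53.4 and 58.3 ppm in Utx WT and 41.0, 33.8 and 32.6 in Utx KO. That of Oas1a, given above, was higher in Utx KO, and such shifts were not tested. In Utx KO 4 of 227 regions were lost (1.76%, background 1.2%) and 7 gained (3.08%, background 2.79%), at 4 members (11.4%, against 7.06% of genes) and 7 members (20.0%, against 14.5%). None lay over a listed start, though Dhx58 and Usp18 have no listed start, and all were narrow, 399 to 799 bp. The losses were at Irf9 (35, 55 and 30 in Utx WT), Stat2 (31, 32 and 47), Oasl1 (55, 48 and 48) and Usp18 (36, 53 and 47). Irf9 kept a PU.1 island over its start in all 6 libraries, and Stat2 had one there in 5 of 6. The gains were at Irf7 (62, 76 and 79 in Utx KO), Ifih1 (63, 46 and 47), Dhx58 (50, 60 and 61), Adar (39, 58 and 51), Ifit3 (50, 31 and 23), Gbp2 (42, 36 and 24) and Gbp3 (38, 41 and 55). The regions of Irf7, Dhx58 and Ifit3 lie outside these genes, within the neighbours Phrf1, Kat2a and Ifit1bl1. Dhx58 is an RNA helicase that tunes RNA sensing, Adar edits double-stranded RNA, and Gbp2 and Gbp3 are guanylate-binding GTPases. Among the strongest 50% of islands in each list, no region was lost and 1 was gained, at Ifit1. At equal list length 5 were lost (2.37%, against 2.1% near genes) and 4 gained, at Irf7, Ifih1, Dhx58 and Adar (1.9%, against 1.82%). Without Utx KO replicate 2, 14 were gained, and without Utx WT replicate 1 or 2, 7 were lost.

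Accessibility in Utx KO was lost at 7 of 105 member regions with the empty vector (6.67%, background 8.72%) and gained at 1 (0.952%, background 1.12%). The losses lay at 7 members (20.0%, against 19.6% of genes), Zbp1, Oas3, Oasl1, Usp18, Trim25, Bst2 and Ifi35, and 6 of the 7 regions held PU.1 in every Utx WT ChIP library (85.7%, against 55.3% of lost regions near any gene) and 6 of 7 in every Utx KO one. All 7 held H3K4me1 in both Utx WT libraries, as did 75.1% of lost regions near any gene. At Oasl1, an inhibitor of Irf7 translation, the lost peak lay over the start, with widths of 390 and 266 bp in Utx WT with empty vector, 298 and 294 bp with Smarca4 gRNA and no peak in any of the 4 Utx KO libraries. At Zbp1, the sensor of left-handed nucleic acid that triggers necroptosis, a peak over the high-coordinate end of the gene was 473 and 410 bp wide in Utx WT with empty vector and 988 and 579 bp with Smarca4 gRNA, and absent from all 4 Utx KO libraries. It was also present in the 4 Utx WT libraries of the Chd4 set, 1314 and 1377 bp wide in the controls.

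The same pattern, present in all 4 Utx WT and in none of the 4 Utx KO libraries of the Smarca4 set, held for Usp18 (258 and 398 bp with empty vector), Trim25 (391 and 332 bp) and Ifi35 (243 and 410 bp). The Ifi35 region lies outside that gene, within the neighbour Vat1. By this rule 5 of 105 member regions (4.76%) were lost and 1 gained (0.952%), against 2.87% and 0.131% of regions near genes. Trim25 and Ifi35, like Zbp1, had the peak in the Chd4 set as well, while Oasl1 and Usp18 had no peak there. At Oas3 the peak was 535 and 449 bp wide in Utx WT with empty vector and was found in neither Smarca4 gRNA library. At Bst2, a protein that tethers budding viruses, it was 313 and 279 bp wide and was found in 1 of the 2 Smarca4 gRNA libraries (301 bp). At equal list length 3 of 99 regions were lost, at Zbp1, Trim25 and Oas3 (3.03%, against 4.07% near genes), and 5 gained, at Mx1, Dhx58, Ifih1, Isg15 and Trim30a (5.05%, against 3.17%), so that gains then outnumbered losses at the members but not near genes at large. Without Utx WT replicate 1 or 2 there were 14 and 11 lost and 2 gained in either case.

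**Figure D4:**
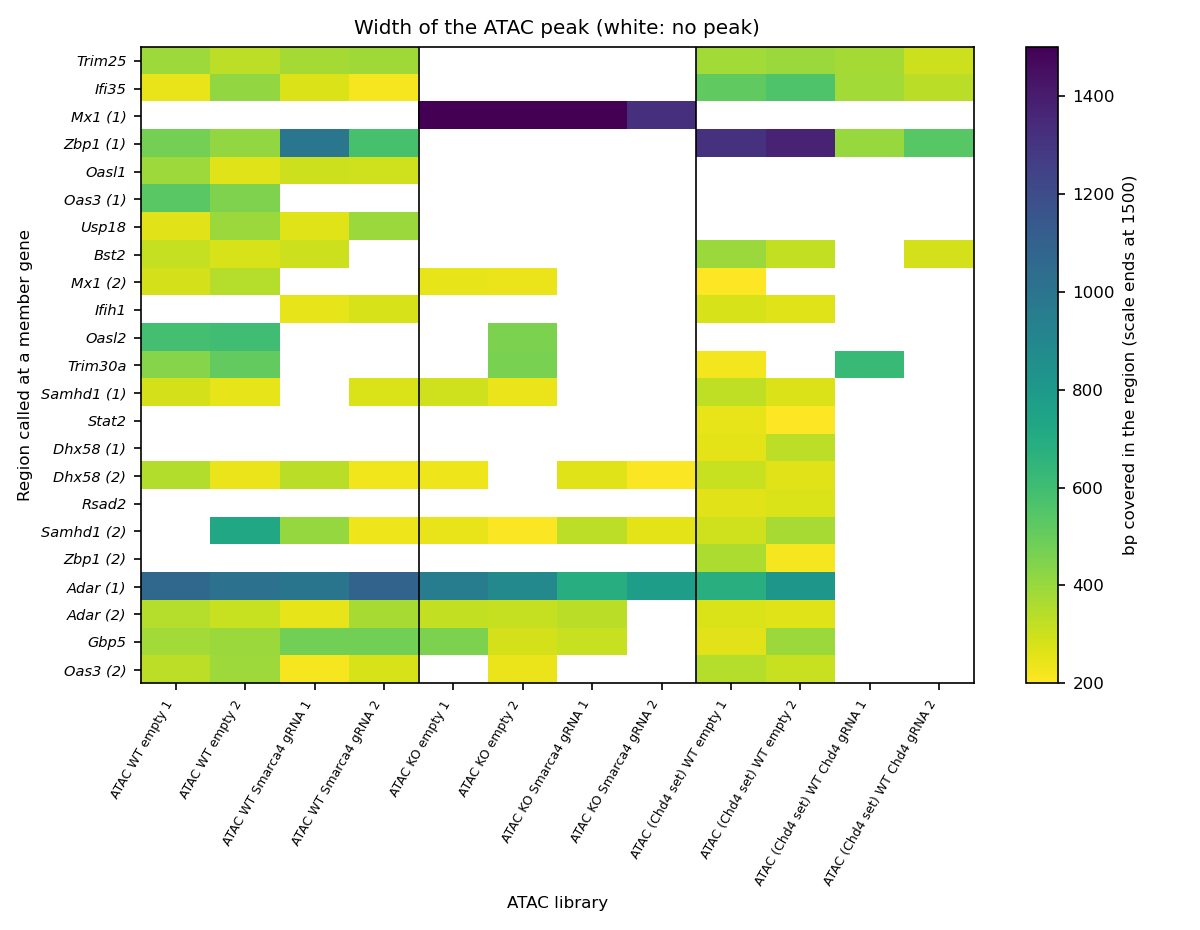
Rows are the regions at member genes called in any ATAC comparison, columns the 12 ATAC libraries (Utx WT and Utx KO of the Smarca4 set, then the Chd4 set, split by black lines), and colour the bases covered by the peak, white for none. The first Mx1 row is dark in the 4 Utx KO libraries alone (1322 to 2255 bp), and Zbp1, Oasl1, Usp18, Trim25 and Ifi35 are white in those 4 libraries.

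Mx1, annotated as a transcribed pseudogene in the build used, stood apart from the other members. A region beginning 86 bp past the high-coordinate end of its span (chr16:97462992-97465267) was open in all 4 Utx KO libraries, with 1781 and 1497 bp covered with empty vector and 2255 and 1322 bp with Smarca4 gRNA. It was closed in the 4 Utx WT libraries of the same set and in the 4 of the Chd4 set. Ranked by the narrower of the empty-vector libraries, it was the widest of 1127 regions gained in Utx KO anywhere in the genome, with 1497 bp against 1327 bp for the next and a median of 256 bp. Mx1 is known to be read from the minus strand, which would make this its upstream side, though the table used here gives neither strand nor start for it.

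Both ChIP marks were also higher at that place in Utx KO, relative to their neighbours in the same list. The PU.1 islands there scored 133, 179 and 159 in Utx WT and 477, 474 and 414 in Utx KO. The next PU.1 island, beginning about 5 kb past the gene end, scored 436, 440 and 487 against 502, 410 and 468. The ratio of the first to the second was thus 0.305, 0.407 and 0.327 in Utx WT and 0.95, 1.16 and 0.885 in Utx KO, with no overlap of the groups. In all 3 Utx KO lists the island ended 2493 bp past the gene, while it ended 1093 bp past it in the Utx WT lists. H3K4me1 over the gene end scored 103 and 234 in Utx WT and 282 and 421 in Utx KO. The next H3K4me1 region scored 201 and 339 against 131 and 135, and the ratios were 0.512 and 0.69 against 2.15 and 3.12. The islands compared were chosen after their values were seen, so no test was made.

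The Mx1 promoter is, as background, also the one used in a common inducible Cre transgene, and whether these mice carried one is not given in the sources used here. Reads from an extra copy of this promoter and from the gene's own one cannot be told apart in these lists. No other member gained an ATAC region in Utx KO, and the relative Mx2 lost and gained none in any comparison.

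**Figure D5:**
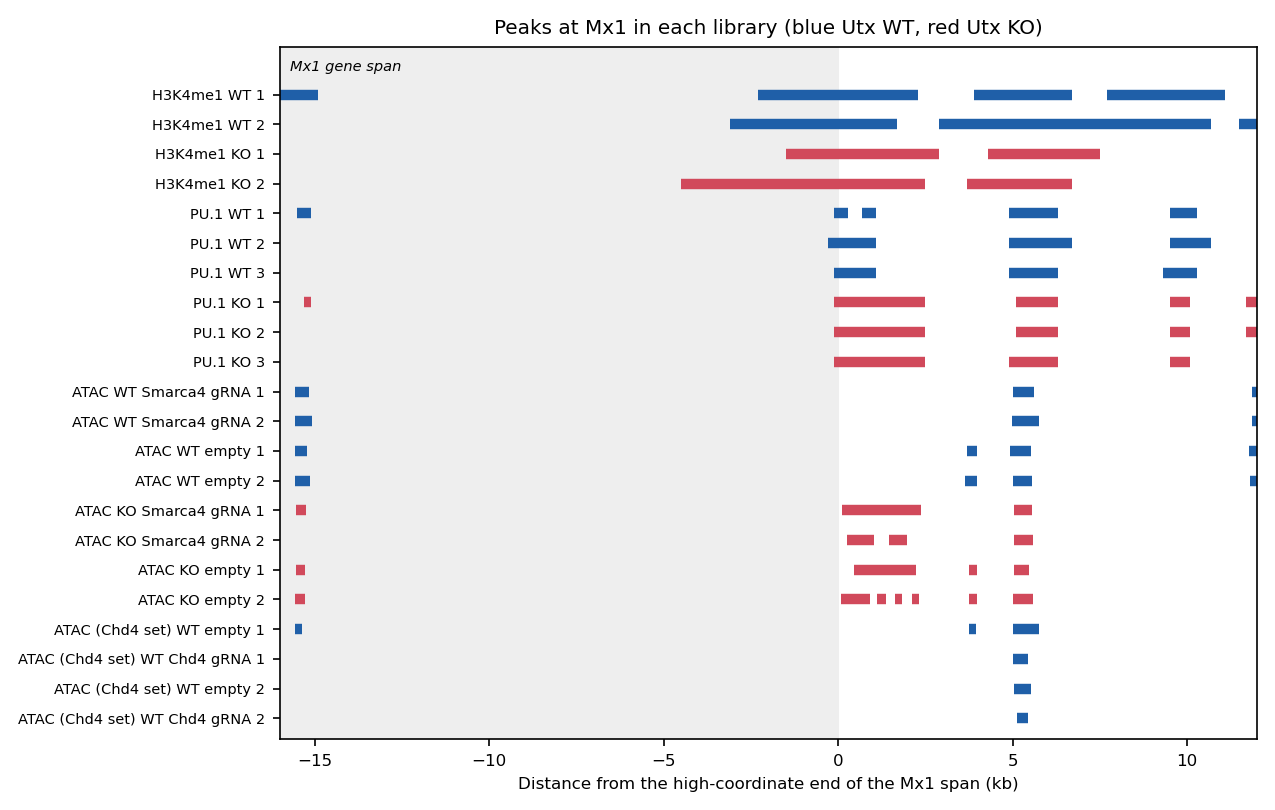
Horizontal bars are the peaks of each library (rows) by distance in kb from the high-coordinate end of the Mx1 span, which is shaded, blue for Utx WT and red for Utx KO. ATAC peaks from 86 to 2361 bp past the end occur in the 4 Utx KO libraries and in none of the 8 Utx WT ones, and the PU.1 island there reaches 2493 bp in Utx KO against 1093 bp in Utx WT.

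Smarca4 gRNA left most member regions in place. In Utx WT 4 of 105 regions were lost (3.81%, background 4.39%) and 1 gained (0.952%, background 0.672%), and in Utx KO 2 were lost (1.9%, background 4.48%) and none gained (background 0.15%). The comparison in Utx WT shares its control libraries with that of Utx KO against Utx WT, and the one in Utx KO shares the other pair. At Oasl2 the peak over the start was 589 and 598 bp wide with empty vector and absent with the gRNA in Utx WT, and in Utx KO it was found in 1 empty-vector library (454 bp) and in neither gRNA library. No library of the Chd4 set, controls included, had this Oasl2 peak. At Trim30a, an interferon-induced regulator of inflammatory signalling, a peak over 1 of its starts was 438 and 512 bp wide and absent with the gRNA in Utx WT. A narrow region about 4 kb past the Mx1 end was lost in both genotypes, from 284 and 346 bp in Utx WT and from 248 and 240 bp in Utx KO. The remaining loss in Utx WT was at Oas3 and in Utx KO at Samhd1, a nucleotide hydrolase that starves retroviruses, and Ifih1 gained a 300 bp region in Utx WT. That Ifih1 region also had peaks of 281 and 261 bp in the Utx WT controls of the Chd4 set, and it is the Ifih1 region lost after Chd4 gRNA below. The difference between genotypes in the effect on the share of covered bases was -0.00575 percentage points (exact permutation p = 1.0, 2 pairs each, smallest possible p 0.33). For this, same-numbered libraries were taken as pairs, though no label says that they are. At equal list length in Utx WT 4 of 98 regions were lost, at the same 4 members (4.08%, against 1.77% of regions near genes), and 5 gained (5.1%, against 1.54%), shares that stood above those near genes where the full lists gave 3.81% against 4.39% lost. In Utx KO 1 region was then lost, at Gbp2 (0.952%, against 1.4%), and 1 gained, at Samhd1 (0.952%, against 0.891%), so neither the Mx1 nor the Samhd1 loss was called. Without Utx WT empty-vector replicate 1 or 2, 8 and 7 regions were lost, with 2 to 4 gained when any 1 of the 4 libraries was left out, and in Utx KO 5 without empty-vector replicate 1 and 14 without gRNA replicate 1.

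After Chd4 gRNA 12 of 105 member regions were lost (11.4%, background 8.56%) and none gained (background 0.0605%). They lay at 9 members (25.7%, against 21.1% of genes). The RNA and DNA sensors lost 6 of their 20 regions, at Ifih1, Dhx58 (2), Zbp1 and Adar (2). One of the Dhx58 regions lies outside that gene and covers the start of the neighbour Kat2a. So few regions do not set the sensors apart from the other members. Adar has 3 listed starts, and it lost the peak at the low-coordinate end of the gene, 685 and 812 bp wide in the controls, which was present in all 8 libraries of the Smarca4 set (692 to 1087 bp) and absent from both Chd4 gRNA libraries. Another Adar start had a peak in all 12 ATAC libraries, 1122 and 984 bp wide in these controls and 788 and 693 bp with the gRNA. At Oas3 the start peak, which holds the element shown above, was 343 and 308 bp wide in the controls and absent with the gRNA. The other losses were at Stat2, Gbp5, Rsad2 and Samhd1 (2). The start of Ifih1 was open in both gRNA libraries, at 427 and 353 bp, against 1094 and 963 bp in the controls.

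The Chd4 gRNA lists were shorter than their controls, as given above, and at equal list length 2 regions were lost (2.08%, against 1.61% near genes), at Adar and Parp14, and 2 gained (2.08%, against 1.13%). Without Chd4 gRNA replicate 1, 28 regions were lost, and without control replicate 2, 20. Peaks at members numbered 82.5 ± 7.78 in the controls and 57.0 ± 14.1 with the gRNA (SD, n = 2 each, exact permutation p = 0.33).

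Open regions at the members were often also bound by PU.1 and marked by H3K4me1. Of 70 ATAC regions held by both empty-vector Utx WT libraries of the Smarca4 set, 57 (81.4%) overlapped a PU.1 island of every Utx WT library, against 69.6% near any gene. H3K4me1 islands overlapped 65 of 70 (92.9%, against 80.9%). Isg15, the ubiquitin-like modifier, had a start peak in 7 of the 8 libraries of the Smarca4 set, 204 to 340 bp wide, and in none of the Chd4 set, while a larger peak 1689 bp from its start was present in all 12.

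The genes upstream of the response were followed as a second list of 24: receptors, kinases, STATs, further IRFs, sensors and adaptors, and the feedback inhibitors Socs1 and Socs3. In Utx KO they lost 7 of 86 H3K4me1 regions (8.14%) at 6 genes, Ifnar1, Ifngr2, Mavs, Stat3, Tbk1 and Tyk2, and gained none. PU.1 was lost at 5 of 245 regions (2.04%) at Irf2, Myd88, Stat3, Sting1 and Tlr9, and gained at 6 (2.45%) at Irf3, Jak2, Rigi and Tlr9. ATAC regions were lost in Utx KO at 14 of 149 (9.4%), among them 3 each at Tbk1, the kinase of Irf3, and at the receptor kinase Jak1. With Smarca4 gRNA 6 of 149 were lost in Utx WT (4.03%, against 4.39% near genes) and 11 in Utx KO (7.38%, against 4.48%). In each genotype 1 was gained (0.671%, against 0.672% and 0.15%), at the start of Tlr3, a sensor of double-stranded RNA. With Chd4 gRNA 17 were lost (11.4%) at 11 genes and none gained. The background of each comparison is the one given with the response genes above.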

How the data were processed

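Peak lists of 22 libraries were used as the authors deposited them. Per the submitters' processing notes Bowtie, Bowtie2, SICER and MACS2 were used with build mm10 (for the Chd4 set Bowtie and MACS2), with no version or role given. The deposited ChIP lists give islands on a 200 bp grid with a whole-number score in column 4, treated as reads per island, a reading of the format that no source states. The deposited ATAC lists give only start and end, so width was used and depth is unknown.

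Peaks of an assay were merged over all its libraries where they overlapped or touched. Shares per library were tested by exact permutation (two-sided). On simulated lists with 200 planted losses and 200 gains per comparison, all were recovered, by construction. Alternatives were 2 kb flanks, lists cut to equal length or to their upper 50% (by score or width), merging within a comparison, 50% cover, replicate pairs and each library left out. Genes named with values were those with a called region, the 3 highest and 3 lowest in either score per kb of window, and those without a peak. Other genes or islands named were chosen after their values were seen. The members and lists were chosen with earlier results of these data known. Promoters came from RefSeq (28 of 35 members). Tools were scipy 1.17.1 and pandas 2.3.3 under Python 3.11.15, with matplotlib 3.10.9 for figures.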

Additional observations from a re-analysis of the deposited data

How the results depend on the processing

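Counts of called regions rested on the list length and the number of libraries, and none of the share tests passed the threshold under any setting. Of 104 recomputed values that kept all libraries, 66 kept their direction or stayed within 1.5 times, and of 88 with a library left out, 58 did. For called regions this compares the number only, and the members called can differ where the number is alike. ATAC lists give peak presence and width only, and their depth is unknown. Leaving out a library, or asking for 1 pair only, loosens the rule by construction, and for the other shifts the cause was not tested.

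With the upper 50% of each list, losses were 5 (H3K4me1), 0 (PU.1), 2 (Smarca4 gRNA in Utx WT) and 4 (in Utx KO), and gains 1 (PU.1) and 0 (Smarca4 gRNA in Utx WT). The 6 losses in ATAC Utx KO (9.52%, against 7.9% near genes) then lay at Irf7, Irf9, Oasl2, Rsad2 and Trim25, of which only Trim25 was called with full lists. The 10 losses after Chd4 gRNA (15.9%, against 8.22%) lay at Adar, Dhx58, Ifih1 and Stat2, also called with full lists, and at Ifi35, Isg15, Isg20, Mx1, Parp14 and Trim25, which were not. At equal list length, losses were 3 (ATAC Utx KO), 1 (Smarca4 gRNA in Utx KO) and 2 (Chd4), and gains 2 (H3K4me1), 4 (PU.1), 5 (ATAC Utx KO), 5 and 1 (Smarca4 gRNA in Utx WT and Utx KO) and 2 (Chd4). With 2 kb flanks, losses were 5 (H3K4me1), 2 (PU.1), 4 (ATAC Utx KO), 1 (Smarca4 gRNA in Utx KO) and 7 (Chd4), and gains 4 (PU.1) and 0 (Smarca4 gRNA in Utx WT). With 50% of a region covered, losses were 5 (Smarca4 gRNA in Utx KO) and 26 (Chd4), and gains 2 (H3K4me1). Merged within the comparison, 4 were lost with Smarca4 gRNA in Utx KO.

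Correlations of the deviations of same-numbered libraries were -0.0173 to 0.0413, and whether these libraries share an animal or culture is not given in the sources used here. The numbers were therefore not taken as pairs in the results above, except for the difference between genotypes in the Smarca4 gRNA effect. With the replicate block, lost and gained regions were 22 and 7 (H3K4me1), 29 and 50 (PU.1), 23 and 3 (ATAC Utx KO), 13 and 8 (Smarca4 gRNA in Utx WT), 19 and 1 (in Utx KO) and 38 and 1 (Chd4), and the shares of covered bases had p of 0.5 to 1.0 (exact sign flips of 2 or 3 pairs, smallest possible p 0.5 and 0.25).

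With each library left out in turn, losses ranged from 12 to 17 (H3K4me1), 5 to 7 (PU.1), 9 to 14 (ATAC Utx KO), 5 to 8 (Smarca4 gRNA in Utx WT), 3 to 14 (in Utx KO) and 13 to 28 (Chd4), and gains from 0 to 3, 7 to 14, 1 to 2, 2 to 4, 0 to 1 and 0 to 1. The difference in covered share (percentage points, perturbed minus reference) ranged from -0.0146 to -0.00721 (H3K4me1), -0.00306 to 0.00567 (PU.1), 0.00321 to 0.0076 (ATAC Utx KO), -7.5e-05 to 0.0163 (Smarca4 gRNA in Utx WT), -0.000724 to 0.00546 (in Utx KO) and -0.0117 to -0.00322 (Chd4). In score share it ranged from -0.0127 to 0.00437 (H3K4me1) and -0.001998 to 0.00596 (PU.1). The sign turned in H3K4me1 score without Utx KO replicate 1 (0.00437), in PU.1 without Utx WT replicate 1 (-0.00306 covered, -0.001998 score) or Utx KO replicate 2 (-0.00215 and -0.00144), and with Smarca4 gRNA without gRNA replicate 1 in Utx WT (-7.5e-05) and Utx KO (-0.000724).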
